A study of Homo sapiens with 6 samples.

Results

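The genes described here are the 85 protein-coding rows of an A549 RNA-Seq count table whose symbols name proteins of the cytosolic ribosome, out of 40173 rows in all. They were chosen by symbol alone: RPSA, RPLP0, RPLP1, RPLP2, or RPL or RPS followed by a number and, where present, the suffix A, X or L, with the RPS6 kinases left out. Of these, 52 encode proteins of the large subunit or its paralogs and 33 encode proteins of the small subunit or its paralogs. A549 is a human lung adenocarcinoma cell line, and all 6 libraries were made from total RNA of this line, 24 h after transfection. In the silence group (3 libraries) the cells received an siRNA against the long noncoding RNA FAM83H-AS1, and in the control group (3 libraries) they received the control transfection. Which siRNA was used is not given in the sources used here. The labels number the replicates 1 to 3 in each group and do not say whether they were separate cultures, so the p-values measure the spread between these libraries, which may be technical. A supplement of the study appears to number the silence libraries in another order, and replicate numbers here are those of the labels.

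The cytosolic ribosome translates all mRNAs of the nuclear genome. Its small subunit holds the mRNA and reads the codons, and its large subunit joins the amino acids and releases the growing chain through a tunnel. The proteins are made in the cytoplasm, most of them are imported into the nucleolus to be assembled with ribosomal RNA, and a few join only after the subunit has been exported. Most of their mRNAs start with a tract of pyrimidines, the 5′ terminal oligopyrimidine (TOP) motif, through which mTOR signalling controls their translation. Nearly every one of these genes has left many processed pseudogenes in the human genome, so that reads of the gene and of its copies are hard to tell apart.

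The libraries held 9738291 to 17742643 counts, and FAM83H-AS1 fell in the silence group from 15.9 ± 1.39 to 4.87 ± 0.617 CPM (counts scaled to a common library size after TMM normalization; mean ± SD, n = 3; log2 fold change -1.70, adjusted p = 7.99e-05 in edgeR's quasi-likelihood test, as are all adjusted p-values here unless another tool is named). Control replicate 3, the deepest library, stood apart: the ribosomal RNA pseudogene RNA5-8SP6 took 3.22% of its counts, against 0.241% to 0.448% in the other 5. Of the A549 markers, KRT8 (1594 to 2081 CPM), KRT18, NQO1 and TXNRD1 were high, while KRT19, EPCAM and AKR1B10 lay below 5 CPM. ALDH1A1 had at most 2 counts in any library, so not all listed A549 markers were present. Of the 9 A549 markers tested 3 passed: KRT18 was lower in the silence group (log2 fold change -0.43, adjusted p = 0.00266), and TXNRD1 (0.35, adjusted p = 0.0256) and AKR1B10 (1.31, adjusted p = 0.0135) were higher. The immune, endothelial and red cell genes PTPRC, CD3E, PECAM1 and HBB had at most 2 counts in any library, and the other markers of immune, fibroblast and endothelial cells lay below 7 CPM, except COL1A1 (25.7 to 37.3 CPM) and CD68. CD68, a lysosomal protein used as a macrophage marker, was at 123 to 253 CPM and rose in the silence group (log2 fold change 0.88, adjusted p = 9.93e-05), and the part of these markers in the results was not tested. CPM values describe a share of each library, and in bulk RNA fewer cells of a kind and less RNA per cell cannot be told apart.

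RPL10 was the 1 member that changed by more than 2-fold. RPL10 sits close to the site where peptide bonds form, joins the large subunit late, in the cytoplasm, and its arrival lets the export adaptor NMD3 leave. Most other members lay slightly lower in the silence group, by a median of -0.19 on the log2 scale over the 83 members with enough counts to test, against -0.00067 over all 15250 genes tested. With RPL10 included, 13 of the 83 passed an adjusted p under 0.05 as lower and 1 passed as higher. These 14 are 16.9% of the members, while 17.0% of all genes tested passed (8.27% lower and 8.75% higher), so the share of members that changed was near the background. By direction, 15.7% of the members passed as lower. Past 2-fold, 1 member passed, against 2.14% of all genes (0.997% as lower).

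**Figure D1:**
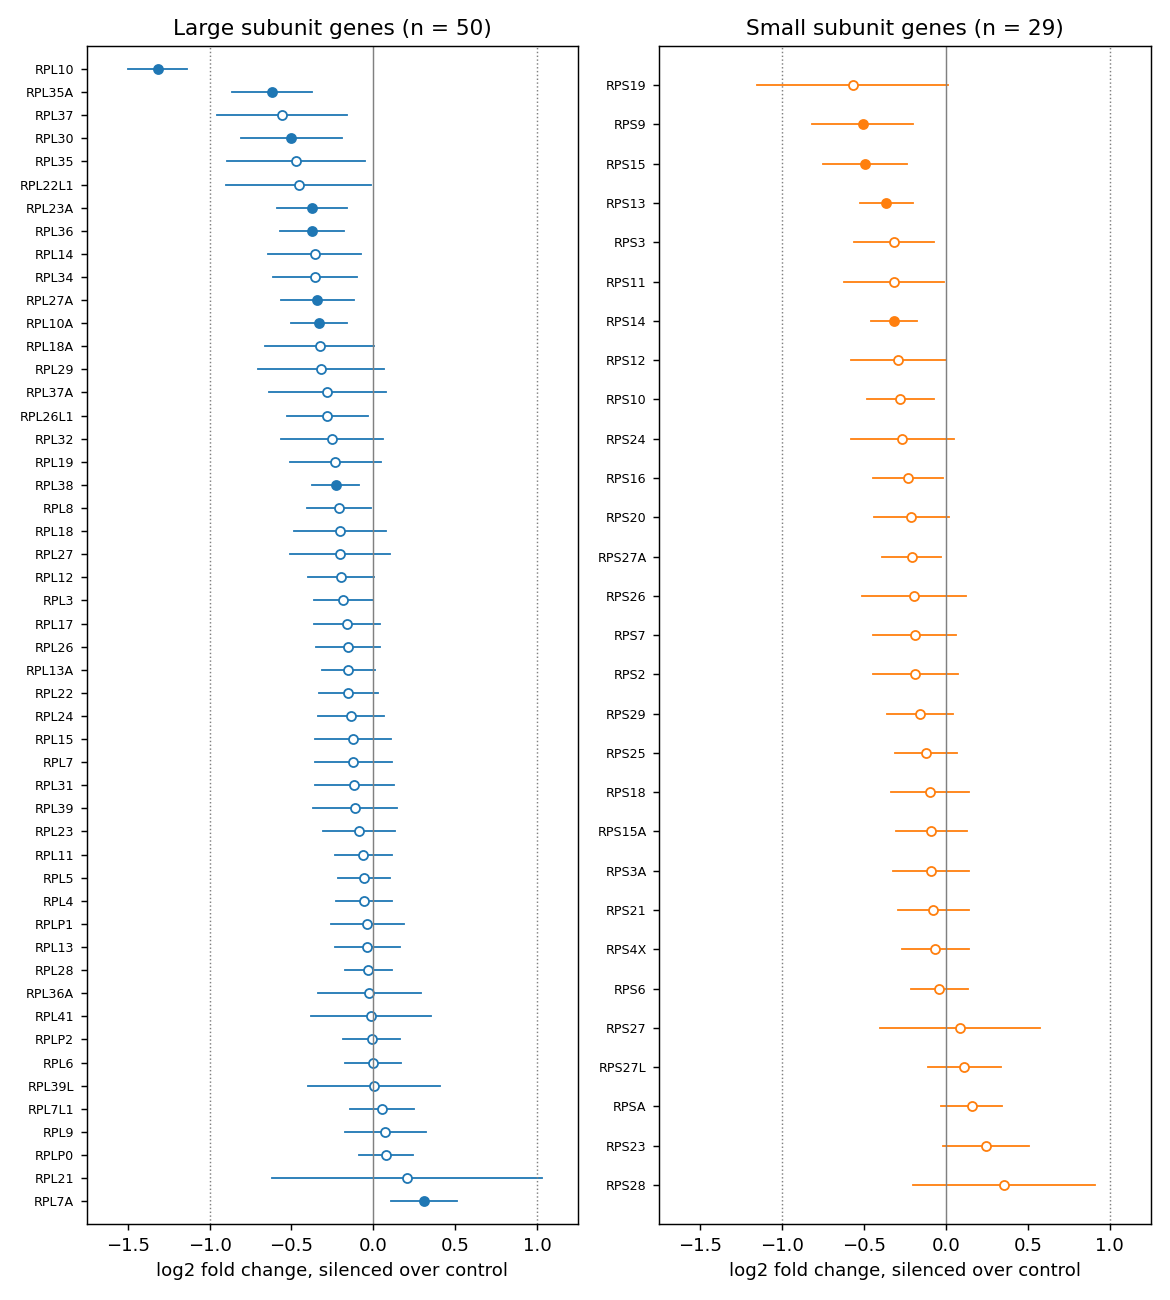
Log2 fold change of silence over control for 50 large subunit and 29 small subunit genes, with 95% intervals derived from edgeR's F statistic (n = 3 libraries per group). Filled points have an adjusted p under 0.05, dotted lines mark 2-fold, and RPL10 at -1.32 lies apart from all others, of which the next lowest is RPL35A at -0.62.

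Since rows with few counts pass less easily, the same counts were made among genes of type mRNA with a mean of at least 50 CPM. There 73 members were tested and 19.2% passed, against 24.5% of all 4277 such genes, while 17.8% of the members and 12.4% of the genes passed as lower. The groups did not overlap in 21 of the 83 members with all silence libraries lower (25.3%; 17.5% of all genes) and in 1 with all silence libraries higher (1.2%; 19.1% of all genes); in either direction 36.6% of all genes had no overlap. The members therefore leaned to one side: 72 had a negative and 11 a positive log2 fold change. The median was -0.16 over the 50 large subunit genes, of which 8 passed as lower and 1 as higher, and -0.21 over the 33 small subunit genes, of which 5 passed as lower.

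RPL10 (chromosome X, 154389955 to 154409168, plus strand, in GENCODE 29 on GRCh38) was at 379.1, 372.7 and 332.9 CPM in control replicates 1 to 3 and at 143.7, 134.5 and 156.7 CPM in silence replicates 1 to 3. The highest silence library thus lay far below the lowest control. These levels rest on 3687 to 5631 counts per control library and 1454 to 2108 per silence library, and the silence mean was 40.1% of the control mean. The log2 fold change was -1.32 with a standard error of 0.0823 (adjusted p = 9.74e-06). An exact two-sided permutation test of the CPM values gave p = 0.1, the smallest value that 3 against 3 libraries allow. RPL10 stayed past 2-fold under all 15 alternative fits, with log2 fold changes between -1.38 and -1.27.

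Of the rows named as pseudogenes of RPL10, 2 passed as lower. RPL10P9, on chromosome 5, was at 205.7, 138.9 and 180.8 CPM in the controls and at 55.2, 49.9 and 79.8 CPM in the silence libraries (log2 fold change -1.50, adjusted p = 0.000444). RPL10P16, on chromosome 19, was at 160.3, 128.6 and 121.4 CPM and then at 57.1, 47.2 and 67.2 CPM (log2 fold change -1.25, adjusted p = 0.000266). Over 645 aligned bases each of the 2 copies was 98.9% identical to the RPL10 transcript, so reads of one can be counted on the other. RPL10P1, RPL10P12 and RPL10P15 did not pass but had all silence libraries below all controls, at control means of 1.21, 1.22 and 2.23 CPM. Their log2 fold changes were -1.19, -1.07 and -0.91 (adjusted p = 0.0535, 0.114 and 0.0567). RPL10P6, at 12.1 ± 5.58 CPM in the controls, overlapped between the groups and had a log2 fold change of -0.31 and an adjusted p of 0.677. With all pseudogene counts added to RPL10, the sum was 694.8 ± 72.0 CPM in the controls and 277.1 ± 39.4 CPM in the silence group (n = 3 each), a log2 fold change of -1.33.

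**Figure D2:**
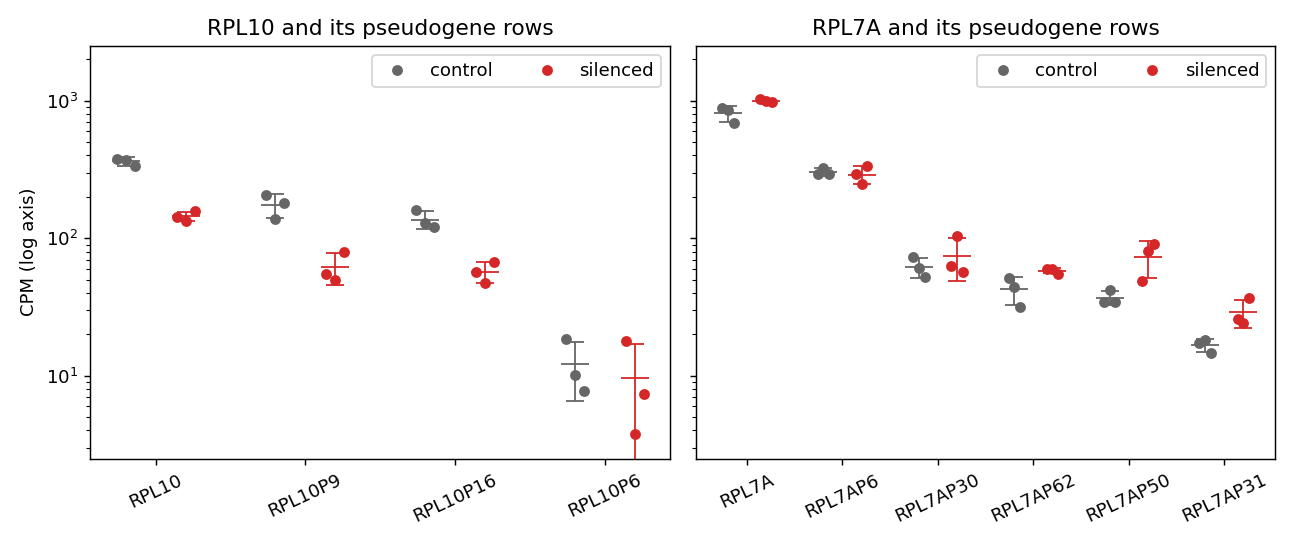
CPM per library on a log axis for RPL10 and RPL7A and for rows named as their pseudogenes, in 3 control (grey) and 3 silence (red) libraries; horizontal marks and bars are the mean ± SD. RPL10, RPL10P9 and RPL10P16 were lower in every silence library than in any control, while RPL7A lay higher and its most abundant copy, RPL7AP6, overlapped between the groups.

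RPL35A, a large subunit protein and one of the genes mutated in Diamond-Blackfan anaemia, was next. It was at 362.4, 354.2 and 313.1 CPM in the controls and at 227.0, 185.1 and 258.4 CPM in the silence libraries. The groups did not overlap, and the log2 fold change was -0.62 with a standard error of 0.111 (adjusted p = 0.00458). Only 3.94% of the counts of RPL35A and its pseudogenes together lay on the pseudogenes. RPL35A kept an adjusted p under 0.05 in all 15 alternative fits, with log2 fold changes from -0.74 to -0.50. It is the member nearest to the 2-fold threshold on the other side, so the gap between it and RPL10 was wide.

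Of the small subunit genes that passed as lower, RPS9 and RPS15 changed more than RPS13 and RPS14. RPS9, which lies near the entry of the mRNA channel, was at 500.1, 398.3 and 380.0 CPM in the controls and at 301.0, 237.3 and 359.2 CPM in the silence libraries (log2 fold change -0.51, adjusted p = 0.0314). RPS15, a protein of the head of the small subunit, was at 316.7, 260.3 and 274.3 CPM and then at 204.8, 165.6 and 233.8 CPM (log2 fold change -0.49, adjusted p = 0.0167). In both genes silence replicate 2 was the lowest library and silence replicate 3 the highest of its group, yet still below every control. RPS15 lost the call without control replicate 1 or silence replicate 1 (adjusted p = 0.0554 and 0.0592), and RPS9 lost it in 4 of the 6 fits that leave out a library, all but those without control replicate 3 or silence replicate 3 (adjusted p = 0.0570 to 0.104). RPS13 (-0.36, adjusted p = 0.00822) and RPS14 (-0.32, adjusted p = 0.00784) changed less but with little spread: RPS14 was at 473.2 to 492.4 CPM in the controls and at 381.5 to 399.0 CPM in the silence libraries.

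Among the large subunit genes, RPL30, RPL23A and RPL36 followed RPL35A. RPL30 was at 210.3, 162.5 and 157.4 CPM in the controls and at 114.2, 107.5 and 152.1 CPM in the silence libraries (log2 fold change -0.50, adjusted p = 0.0322). RPL23A, a docking site for factors at the mouth of the exit tunnel, was at 173.0, 209.2 and 207.5 CPM and then at 149.7, 137.2 and 168.1 CPM (log2 fold change -0.37, adjusted p = 0.0242). RPL36 was at 171.3, 142.4 and 146.7 CPM and then at 121.7, 108.8 and 124.4 CPM (log2 fold change -0.37, adjusted p = 0.0169). The 3 genes had no overlap between the groups, though silence replicate 3 came close to a control in RPL30 and in RPL23A. RPL36 lost the call without silence replicate 1 or 2 (adjusted p = 0.0565 and 0.0504). RPL30 and RPL23A lost it in 4 of the 6 fits that leave out a library, including those without silence replicate 1 or 2 and without control replicate 2 (adjusted p = 0.0519 to 0.121). RPL27A, RPL10A and RPL38 also passed, with log2 fold changes of -0.34, -0.33 and -0.23, and RPL27A did so although its groups overlapped. For RPL23A 56.5% of the family's counts lay on pseudogenes, and with these added its log2 fold change was -0.24 (adjusted p = 0.164).

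Several members had differences as large as these without passing, and their libraries spread widely. RPS19, the first gene found mutated in Diamond-Blackfan anaemia, was at 808.4, 524.1 and 450.2 CPM in the controls and at 413.8, 236.5 and 549.2 CPM in the silence libraries (log2 fold change -0.57, adjusted p = 0.165). RPL37 had a log2 fold change of -0.56 (adjusted p = 0.0573) and RPL35, at the exit tunnel, one of -0.47 (adjusted p = 0.118). For RPS19 silence replicate 3 exceeded control replicates 2 and 3, so the groups overlapped.

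RPL7A was the 1 member that passed as higher. It was at 887.3, 852.6 and 686.9 CPM in the controls and at 1025, 998.0 and 984.0 CPM in the silence libraries (log2 fold change 0.31, standard error 0.0923, adjusted p = 0.0411). The silence libraries lay close together and above every control, of which control replicate 3 was the lowest. The call was lost without control replicate 2 or 3 or without any 1 of the silence libraries (log2 fold change 0.20 to 0.35, adjusted p = 0.0673 to 0.129), and was kept without control replicate 1. Of the rows named as its pseudogenes 3 passed as higher too, RPL7AP62 by 0.47, RPL7AP31 by 0.81 and RPL7AP50 by 0.99 on the log2 scale (adjusted p = 0.0435, 0.00688 and 0.00567). The most abundant copy, RPL7AP6, was at 303.2 ± 19.7 CPM in the controls and 290.3 ± 42.3 CPM in the silence group (n = 3 each; adjusted p = 0.716). With all pseudogene counts added, RPL7A had a log2 fold change of 0.25 and no longer passed (adjusted p = 0.0603).

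The lower levels were not the same in all silence libraries. Set against the mean of the controls on the log2 scale, the median member was at -0.21 in silence replicate 1, at -0.33 in silence replicate 2 and at -0.06 in silence replicate 3, while the 3 controls were at 0.02, 0.01 and -0.05. Silence replicate 2 was the lowest of the 6 libraries for 56 of the 83 members. Without it 7 members passed and the median log2 fold change was -0.11, and without silence replicate 3, 27 members passed and the median was -0.26. Leaving out silence replicate 1, control replicate 1 or control replicate 2 left 4, 8 and 8 members, and leaving out control replicate 3, the library with much RNA5-8SP6, left 16. In these fits between 7.87% and 12.7% of all genes tested passed. How many members passed thus depended on single libraries, whereas RPL10 passed 2-fold and RPL35A passed an adjusted p under 0.05 in each of the 6.

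**Figure D3:**
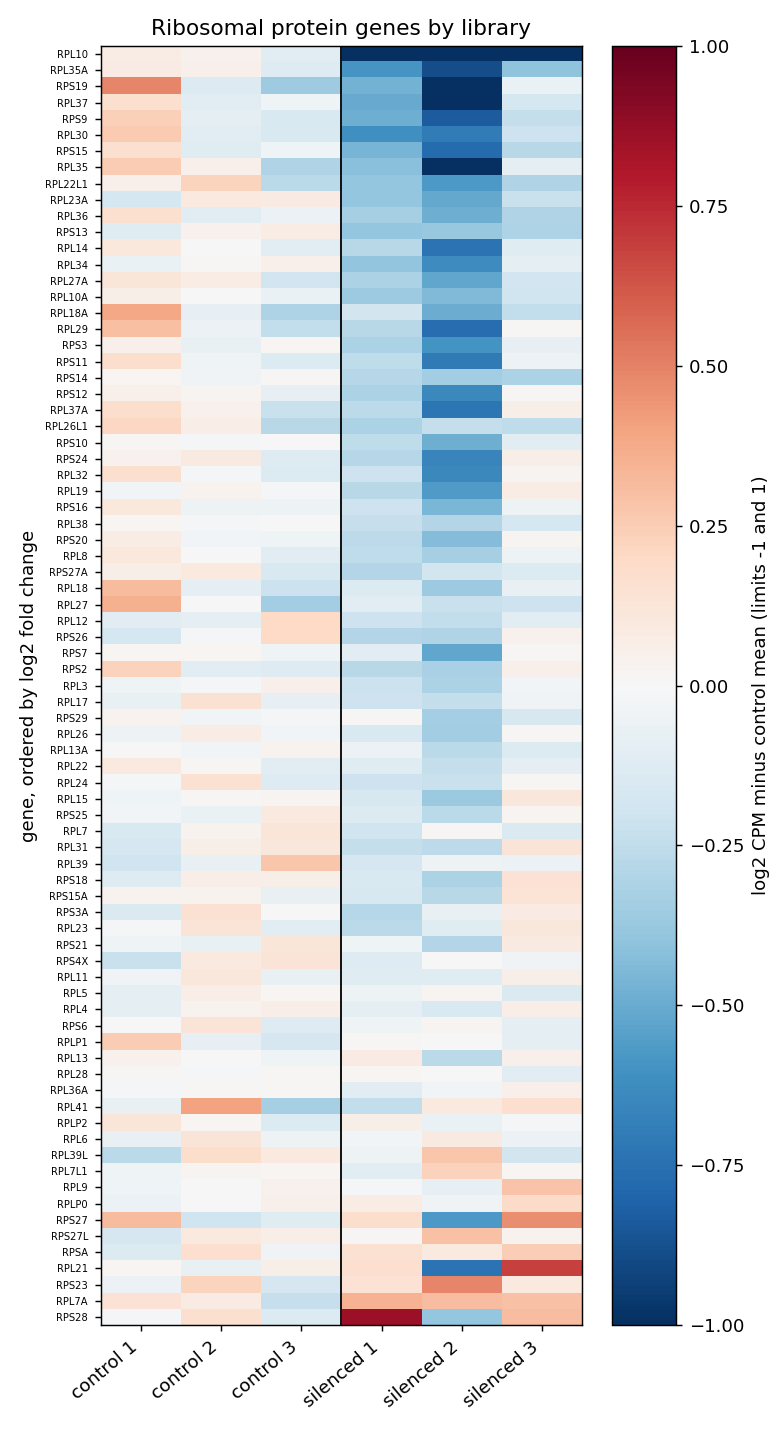
Log2 CPM of 79 tested members in each library minus the mean of the 3 controls, with genes in order of log2 fold change and colours limited to -1 and 1. RPL10 is at the blue limit in all 3 silence libraries, while most other members are lowest in silence replicate 2 and near the controls in silence replicate 3.

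Summed over all 85 members, the genes took 3.41%, 3.33% and 3.004% of the counts in control replicates 1 to 3 and 2.88%, 2.61% and 3.18% in silence replicates 1 to 3. The exact 95% binomial interval, which covers counting error only, ran from 3.396% to 3.418% in control replicate 1, the library with the fewest counts. The group means were 3.25% ± 0.213 and 2.89% ± 0.284 (SD, n = 3), and the groups overlapped, since silence replicate 3 lay above control replicate 3. Rows named as pseudogenes of members took a further 1.34% to 1.58% in the controls and 1.29% to 1.497% in the silence libraries. The ratio of large to small subunit counts was 1.53, 1.57 and 1.52 in the controls and 1.59, 1.61 and 1.57 in the silence group. The highest control (1.570) and the lowest silence library (1.571) almost met.

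**Figure D4:**
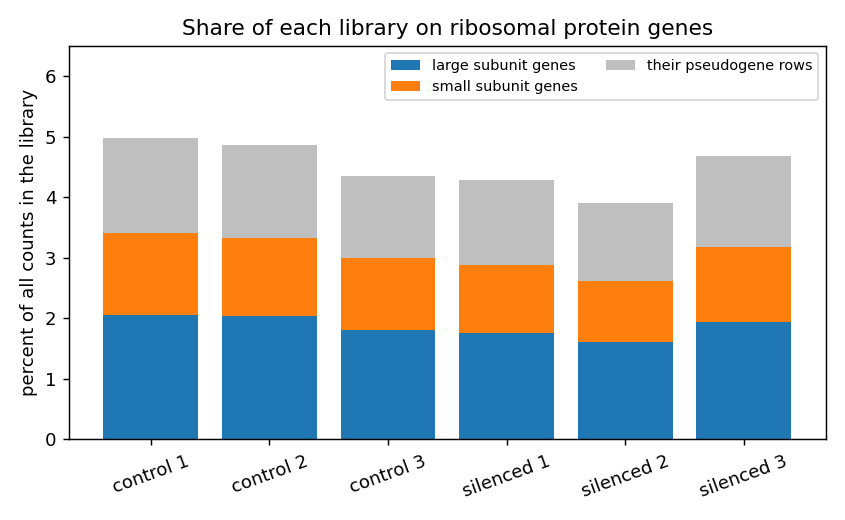
Percent of all counts in each of the 6 libraries that fell on large subunit genes, small subunit genes and the rows named as their pseudogenes, as stacked bars from 0. Silence replicate 2 has the smallest share on the members (2.61%) and control replicate 1 the largest (3.41%).

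The P stalk recruits the GTPases of translation, and none of its 4 genes passed the test. RPLP0 was at 912.4, 953.2 and 983.2 CPM in the controls and at 1000.1, 924.5 and 1083 CPM in the silence libraries (log2 fold change 0.08, 95% interval -0.09 to 0.24). RPLP1 and RPLP2 had log2 fold changes of -0.04 and -0.01, and RPL12, which holds the stalk at its base, one of -0.20 (adjusted p = 0.160). The 4 genes passed neither in edgeR nor in DESeq2, and 0 had an unadjusted p under 0.05, while the intervals of RPLP0, RPLP1 and RPLP2 lay within -0.26 and 0.24. RPL24, which like RPL10 joins the large subunit late, was at 199.9 ± 19.6 CPM in the controls and 181.6 ± 17.0 CPM in the silence group (n = 3 each; log2 fold change -0.14, adjusted p = 0.337).

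RPL5 and RPL11, which carry the 5S ribosomal RNA and bind MDM2 when ribosome assembly is disturbed, had log2 fold changes of -0.06 and -0.06 (adjusted p = 0.632 and 0.637). Their 95% intervals ran from -0.22 to 0.10 and from -0.23 to 0.11. MDM2 itself did not pass (0.15), while CDKN1A, an inhibitor of the cell cycle, rose from 72.5 ± 3.72 to 115.7 ± 15.9 CPM (n = 3 each; log2 fold change 0.68, adjusted p = 0.0018). RPS6, the small subunit protein phosphorylated by the S6 kinases, was at 1104 ± 97.3 and 1073 ± 44.5 CPM (log2 fold change -0.04, adjusted p = 0.765).

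For comparison with the lists below, 72 of all 83 tested members had a negative log2 fold change. Of the members 15.7% passed as lower, and of all genes tested 8.27% did. By place in the ribosome, the 9 genes of the exit tunnel and its mouth all had negative log2 fold changes, with a median of -0.15. Of these 1 passed, RPL23A (11.1%). Of the 6 genes along the mRNA channel of the small subunit 2 passed as lower (33.3%), RPS14 among them, and the median was -0.25. A list of 11 genes mutated in Diamond-Blackfan anaemia had a median of -0.19, with all 11 below 0, and 1 of them passed, RPL35A (9.09%). Lists this short allow no statement on whether they differ from the members as a whole. The list is not complete: RPS27 and RPS28, also reported in this disease, are not on it and had log2 fold changes of 0.09 and 0.35, which did not pass. The 4 members on the X chromosome comprised RPL10, which passed, and RPS4X, RPL39 and RPL36A, at -0.06, -0.11 and -0.02, which did not.

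Of the 8 paralogs with an L in the symbol, 6 had enough counts to test and none passed in edgeR or DESeq2. The median of the 6 was -0.11, and 2 of them had an unadjusted p under 0.05 in edgeR. RPL22L1 was at 6.37, 7.26 and 5.03 CPM in the controls and at 4.59, 3.98 and 4.91 CPM in the silence libraries, without overlap (log2 fold change -0.45, adjusted p = 0.145), while its parent RPL22 had a log2 fold change of -0.15. RPL26L1 and RPL26 had -0.28 and -0.15, RPS27L and RPS27 had 0.11 and 0.09, RPL39L and RPL39 had 0.003 and -0.11, and RPL7L1 and RPL7 had 0.06 and -0.12. RPL10L, the paralog of RPL10 made in the testis, had 3 counts in control replicate 1 and none in the other libraries, and RPL3L, the muscle paralog of RPL3, had at most 4 counts in any library. Both were left out of the test, and RPL3 itself had a log2 fold change of -0.18 (adjusted p = 0.150).

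The table holds 1895 rows whose symbols name pseudogenes of members, and 78 members have at least 1. Enough counts for the test were found in 418 of these rows, and 17 passed as lower and 12 as higher (6.94% in all, against 17.0% of all genes). Without silence replicate 1, 13 passed, in a fit where 7.87% of all genes did. Rows with few counts pass less easily, and these shares are not matched for level. The 5 most abundant, RPS18P5, RPS2P5, RPS2P46, RPSAP58 and RPL13AP5, lay at 508.1 to 853.6 CPM in the controls, and none passed in edgeR or DESeq2 or had an unadjusted p under 0.05. Of the 29 that passed, 22 had the same sign as the gene they are named for. Since 72 of the 83 tested members were below 0, a copy that passed as lower would mostly share that sign in any case. The count of 22 is therefore no measure of shared reads. Reads of a gene and of a copy that differs from it at few bases cannot be told apart with certainty, and how the counting placed reads that match several places is not given in the sources used here.

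For 25 members more than 50% of the counts of gene and copies together lay on the copies, and for 3 members over 90% did: RPL36A (96.2%), RPL21 (95.4%) and RPS28 (94.9%). For these the row of the gene says little about the gene. RPS28 was at 9.66, 11.1 and 8.87 CPM in the controls and at 18.2, 7.40 and 12.3 CPM in the silence libraries (log2 fold change 0.35, adjusted p = 0.369), whereas RPS28P7, identical to the RPS28 transcript over 210 aligned bases, was at 260.9, 183.9 and 220.4 CPM and then at 140.8, 111.4 and 155.7 CPM (log2 fold change -0.70, adjusted p = 0.00685). With the copies added, RPS28 had a log2 fold change of -0.56 (adjusted p = 0.0187), the opposite sign of its own row. RPL36A went from -0.02 to -0.41 (adjusted p = 0.00641) in the same way. In that fit 13 members passed, all as lower, and 11 of them were among the 14 that passed before. RPL23A, RPL27A and RPL7A no longer passed.

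**Figure D5:**
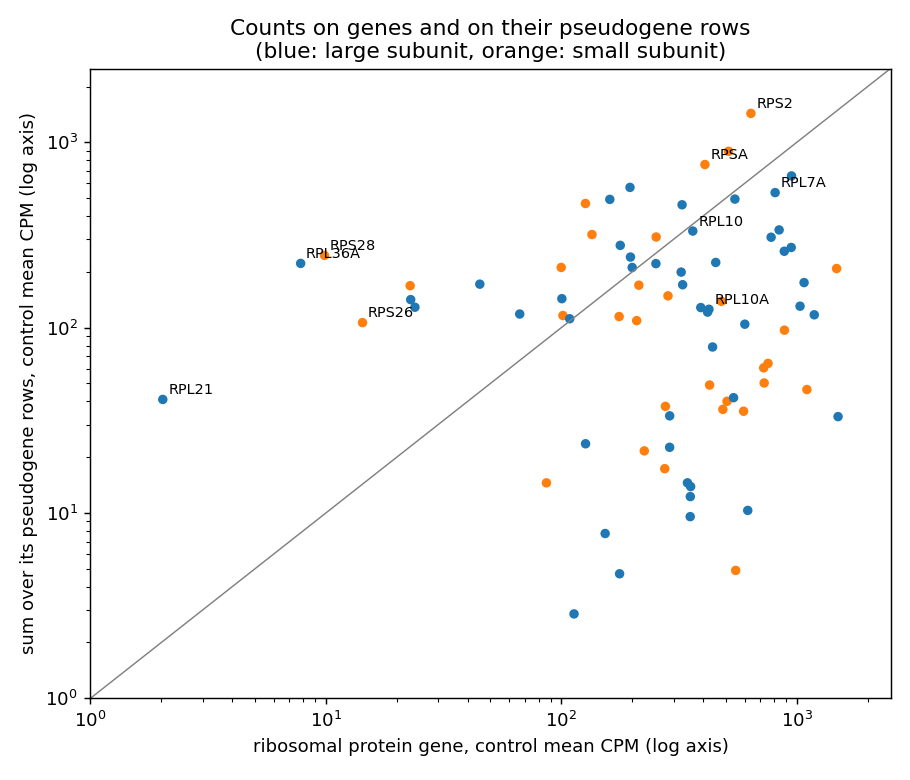
Mean CPM in the 3 control libraries of each tested member with pseudogene rows (n = 78, log axis) against the sum over those rows (log axis); the line marks equal values. RPL36A, RPS28 and RPL21 lie far above the line, with over 90% of the family's counts on the copies, and RPL10 lies near it.

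The 44 members with less than 25% of the family's counts on copies, whose rows are the least open to this mixing, had a median log2 fold change of -0.23. Among them 9 passed as lower (20.5%, against 8.27% of all genes tested and 12.4% of the mRNAs with a mean of at least 50 CPM) and none as higher, and 19 had an unadjusted p under 0.05, all lower. RPL35A, RPS9, RPL30 and RPL36 belong to them, while RPL10, with 47.9% on copies, does not.

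By the annotated transcripts taken, 40 of 82 members had 300 to 1000 bases. Other mRNAs of that length also lay lower in the silence group. Among other tested mRNAs with an annotated transcript of 300 to 1000 bases (n = 487), the median log2 fold change was -0.16 and 19.7% passed as lower. The 40 members in that range had a median of -0.21 and 15% passed as lower. Among the other mRNAs the median was -0.06 for the next longer range and 0.03 for the longest transcripts, whereas the members in those ranges were at -0.12 and -0.15 (21 each). Across members the log2 fold change had a Spearman correlation of 0.08 with transcript length (n = 82), of -0.19 with GC content (n = 82) and of -0.18 with the control level (n = 83), all from the same libraries. The length taken was that of the longest of the best-ranked annotated transcripts, for instance 7686 bases for RPL37. The mRNA in these cells may be shorter, so the contrast by range and the correlation with length depend on that choice. The part of transcript length in the members' lower levels was not tested.

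Expressed per kilobase of annotated transcript, the control level was highest for RPL35, at 1944 CPM per kilobase, followed by RPL19 (1457) and RPL8 (1438). It was lowest for RPL21 (2.49) and RPL22L1 (2.84). These levels depend on which annotated transcript is taken and, for RPL21, on the copies that took most of the family's counts.

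The start sites are shown because they carry the TOP motif that marks these mRNAs. Below are 10 bases before and 15 bases from a RefSeq start (GRCh38.p14), with the pyrimidine run from the first transcribed base in capitals, for the 2 genes that fell most, for RPS9, for RPL7A and for RPS6.
RPL10 (chrX:154398367-154398391, plus strand): ggaggagcgcCTCTTTCCCTTCggt
RPL35A (chr3:197950180-197950204, plus strand): gggcctcgtcCTTCTCTTaccgcca
RPS9 (chr19:54200848-54200872, plus strand): gcttccgcgcCTCTTTCTCagtgac
RPL7A (chr9:133348208-133348232, plus strand): attccctttcCTTTCTCTCTCCTCC
RPS6 (chr9:19380222-19380246, minus strand): gaagttggccCTCTTTTCCgtggcg
The run of RPL7A goes on past the last base shown. RPL10, which fell, RPL7A, which rose, and RPS6, which did not pass, all start in this way.

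A start with C followed by at least 4 bases that are each C or T was found for 47 of the 67 members with a RefSeq start sequence (70.1%), against 1404 of all 27305 genes (5.14%). RPL10 has 3 RefSeq starts, of which 1 has the run. The median log2 fold change was -0.15 over the 47 members with such a start and -0.16 over the 19 tested members without. Other mRNAs known to carry the TOP motif, mainly translation factors, were a second point of comparison: of 24 tested none passed in edgeR, 7 had an unadjusted p under 0.05, and the median was -0.07. Without silence replicate 2 or 3, edgeR called 1 and 2 of them. DESeq2 called 2 of them, GNB2L1 as lower and EIF2S3 as higher. EIF2S3, a subunit of initiation factor eIF2, had the largest positive difference (log2 fold change 0.33, adjusted p = 0.0741). GNB2L1, the small subunit scaffold also called RACK1, had the largest negative one, at 1644, 1570 and 1659 CPM in the controls and 1303, 1241 and 1537 CPM in the silence libraries (log2 fold change -0.26, adjusted p = 0.0620).

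The word CCAATAA, which earlier results on these libraries had singled out in the 3′-UTRs of lower mRNAs, was looked for in the members' 3′-UTRs, and its sites in RPL10 and RPL23A, which passed as lower, are shown. Each site has 10 bases on either side, from GENCODE 29 transcripts (GRCh38), with the word in capitals.
RPL10 (word at chrX:154400890-154400896, plus strand): ttaatactcaCCAATAAattctacttc
RPL23A (word at chr17:28724330-28724336, plus strand): caccccttgcCCAATAAaggacaagga
In both the next base is A, so that the word overlaps AATAAA, the signal for cleavage and polyadenylation. The word was in the 3′-UTR of 5 of 82 members with an annotated one, among them RPL13A (-0.15, adjusted p = 0.182) and RPL7L1 (0.06, adjusted p = 0.712).

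Of these 5 members 3 passed as lower, and the median was -0.37. Of 1188 tested genes with the word in the 3′-UTR, 25% passed as lower, against 9.23% of the 11589 tested genes with an annotated 3′-UTR. The word was chosen on these libraries, so these counts are a description and no independent evidence. RPL35A, RPS9, RPL30, RPS15 and RPL36, which passed as lower, do not have it in the transcript taken. In RPL10 the word is in 5 of 9 coding transcripts with a 3′-UTR and in RPL23A in 1 of 7.

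Many members carry small nucleolar RNA (snoRNA) genes in their introns, which are released when the host transcript is spliced and guide the modification of ribosomal RNA. Within 28 tested members at least 1 snoRNA gene is annotated, and their median log2 fold change was -0.19, the same as that of the 55 members without. Of the 32 snoRNA rows with enough counts, 9 passed as lower (8.27% of all genes tested did) and none as higher in edgeR, where 18 had an unadjusted p under 0.05, all lower, and DESeq2 called 7, all lower. SNORA70, inside RPL10, was at 5.35, 9.16 and 16.9 CPM in the controls and at 6.44, 5.55 and 7.36 CPM in the silence libraries (log2 fold change -0.73, adjusted p = 0.148). Control replicate 3, the library with much RNA5-8SP6, was the highest in 29 of the 32 rows and in all 9 that passed. For SNORD24, inside RPL7A, that library was at 8.45 CPM against 1.03 and 1.99 in the other controls (log2 fold change -2.30, adjusted p = 0.0405). For SNORD46 it was at 31.7 CPM against 3.08 and 3.54 in the other controls, and the silence libraries were at 1.17, 1.39 and 2.97 CPM (log2 fold change -2.81, adjusted p = 0.0393). Without control replicate 3, a fit chosen after the values had been seen, 1 of 31 rows passed, and 25 had a negative log2 fold change. Without silence replicate 1, 2 or 3 the number was 2, 1 and 2, and without control replicate 1 or 2 it was 14 and 12. How many snoRNA rows passed thus depended on single libraries.

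Genes listed as serving ribosomal proteins are set beside the 17.0% of all genes tested that passed. The lists are too short to say whether they passed less often than that. Of 14 chaperones and importers 1 passed (7.14%), GRWD1, a chaperone of RPL3. GRWD1 was at 80.9, 63.3 and 71.4 CPM in the controls and at 48.0, 45.9 and 53.7 CPM in the silence libraries (log2 fold change -0.54, adjusted p = 0.00553). Of 7 genes listed as modifiers of ribosomal proteins 1 passed (14.3%), METTL13 (-0.27, adjusted p = 0.0347), a methyltransferase whose known substrate is the elongation factor eEF1A. None of 8 factors of cytoplasmic large subunit maturation passed in edgeR or DESeq2, and 3 had an unadjusted p under 0.05 in edgeR. NMD3, the export adaptor that RPL10 displaces, was at 64.7 ± 5.61 and 61.5 ± 7.01 CPM (n = 3 each; log2 fold change -0.07, adjusted p = 0.656). FAU and RPL36AL, which encode ribosomal proteins under symbols that the choice did not cover, were at -0.22 and -0.16. Neither passed in edgeR or DESeq2, and FAU had an unadjusted p under 0.05.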

How the data were processed

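RNA-Seq libraries of A549 cells were prepared from total RNA with an Ion Proton kit, 3 per group. The authors counted reads per gene with Mapsplice (the submitters' processing notes name GRCh37) and deposited raw counts for 40173 rows, whose types (mRNA, ncRNA and others) are theirs. How reads with several matches were assigned and whether counting used strand are not given in the sources used here.

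The counts as deposited were tested, silence against control, by the quasi-likelihood F test of edgeR (version 4.0.16; R 4.3.3) after its filterByExpr step and TMM scaling, with Benjamini-Hochberg adjustment over 15250 genes; CPM use TMM-scaled library sizes. The thresholds in the study's methods (fold change above 2 and an adjusted p under 0.05) were kept. Its results use an adjusted p under 0.01, which was tried as an alternative. Counts at any fold were added. DESeq2 1.42.0, other normalizations and filters, rows of type mRNA, thinned counts, added pseudogene counts, a replicate block and fits leaving out each library were alternatives. The script was tested on simulated data. No row lacked a gene name. Shares of counts have exact Clopper-Pearson intervals.

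Lengths, locations and 3′-UTRs came from GENCODE 29 (GRCh38; for each gene the longest transcript of the highest APPRIS rank) and start sequences from RefSeq (GRCh38.p14). No coordinates were converted from GRCh37, and 82 of the 83 tested members matched GENCODE by symbol. Pseudogenes were matched by symbol: the member's symbol, then P and a number.

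Genes named were members past 2-fold, the members with the 8 largest rises and falls at an adjusted p under 0.05, the P stalk, RPL5, RPL11, RPL24, RPS6, paralogs with their parents, members that failed the filter, pseudogenes of RPL10 and the 5 most abundant others, and up to 4 called genes of other lists. Some genes that this rule covers are not reported here, nor drawn in the plots that name genes. Further genes and pseudogenes were named after their values were seen. The members and all lists were chosen with earlier results of these data known, so no p-value over a list is given.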

Additional observations from a re-analysis of the deposited data

How the results depend on the processing

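In place of the 14 members with an adjusted p under 0.05, 34 of 85 passed when all genes with at least 1 count were fitted (13.3% of all genes there), 4 passed at an adjusted p under 0.01 (5.92% of all genes), and 4 to 27 when a library was left out. DESeq2 gave 18 (13 shared; 9.06% of all genes), rows of type mRNA only 19 (14 shared; 23.3%), library size alone 12 (16.7%) and RLE size factors 14 (17%). In DESeq2 and in the fit of all genes with at least 1 count, the share of all genes is over 25864 rows, against 15250 in the main fit. These include the rows with few counts that the filter removed, which pass less easily. Rows to which DESeq2 gave no adjusted p were counted as not passing. The 9.06% and 13.3% are therefore not comparable with the share in the main fit. Library size alone moved the median of all genes by 0.03. The median of the members stayed below 0 in all fits, and RPL10 past 2-fold. Outside the fits that leave out a library, the calls lost were those of RPS9 (DESeq2, adjusted p = 0.0813), of RPL23A, RPL27A and RPL7A (pseudogene counts added) and of RPL27A and RPL38 (library size alone).

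Log2 fold changes near 0 changed sign. RPL39L (0.003) was at -0.00097 with RLE size factors, -0.00072 in DESeq2, -0.0076 with all genes that have at least 1 count, -0.0068 with rows of type mRNA only, -0.042 in thinned counts, -0.0016 with the replicate block and -0.00021 with pseudogene counts added. RPLP2 was at 0.022 with library size alone. With pseudogene counts added RPL7 was at 0.088 and RPS27 at -0.077. When a library was left out, the ranges were -0.12 to 0.10 for RPLP1, -0.079 to 0.051 for RPLP2, -0.10 to 0.023 for RPS6, -0.040 to 0.13 for RPL7L1, -0.15 to 0.11 for RPL39L, -0.21 to 0.047 for RPL39 and -0.17 to 0.33 for RPS27. None of these passed in any of these fits, and the cause was not tested.

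The replicate numbers did not pair the samples by the criterion used (every correlation of same-numbered deviations above 0.1): they were 0.14, 0.17 and 0.06, although every library correlated best with its own number. A supplement of the study appears to number the silence libraries in another order than the labels, so a shared number may not mark a pair. With the replicate block 21 members passed, 19 lower and 2 higher, 14 of them shared, and 22.6% of all genes passed. Counts of 3 or fewer in RPL10L and 4 or fewer in RPL3L allow no statement on these paralogs, and with 3 libraries per group small differences can be missed.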
